A study of Mus musculus with 6 samples.

Results

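Prss16, Tbata, Ly75 and Cd83 are 4 genes of the cortical thymic epithelial cell (cTEC), chosen by symbol for their links to CD4 T cell selection or to cTEC identity. Each was found by symbol among the 50600 gene identifiers of the files. Polyadenylated RNA was sequenced from primary cTECs of the thymus of mice aged 8 to 10 weeks, in 6 libraries. The KO libraries (replicates A to C, below KO A, KO B and KO C) came from B6.B6CB-Psmb11tm1Smta mice that were Psmb11-/-, and the WT libraries (WT A, WT B and WT C) from mice given under the same strain name as Psmb11+/+. Psmb11 encodes β5t, a proteasome subunit made in cTECs, and both groups were otherwise labelled alike. The labels do not say how the cells were sorted, whether animals were pooled, or whether the replicates of a genotype were separate mice, so p-values measure only the spread between these samples.

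cTECs present self peptides to immature thymocytes, and thymocytes whose receptors bind these complexes weakly survive. Peptides on MHC class I select CD8 T cells and depend in cTECs on the proteasome that contains β5t. Peptides on MHC class II select CD4 T cells and are made by endosomal and lysosomal proteases. Prss16 is the thymus-specific serine protease, an enzyme of cTEC endosomes and lysosomes that takes part in making class II peptides. Cd83 is a membrane protein of the immunoglobulin superfamily that keeps class II at the cell surface by opposing the ubiquitin ligase March8. Ly75 (DEC-205, CD205) is an endocytic C-type lectin receptor used as a surface marker of cTECs. Tbata, also called Spatial, is a thymic stromal protein reported to bind the NEDD8-activating enzyme subunit Uba3.

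The genes were looked up by identifier in GENCODE M21, an annotation of the mouse build GRCm38, and all 4 are protein-coding. Prss16 (ENSMUSG00000006179.8 in the files) lies on chromosome 13 from 22002173 to 22009742 on the minus strand, and the longest coding transcript has 12 exons. Cd83 (ENSMUSG00000015396.3) lies on the same chromosome from 43784775 to 43803132 on the plus strand, with 5 exons. Tbata (ENSMUSG00000020096.20) is on chromosome 10 from 61171954 to 61188841 on the plus strand, with 10 exons. Ly75 (ENSMUSG00000026980.15) is on chromosome 2 from 60292103 to 60383303 on the minus strand, with 35 exons. None of them is on chromosome 14, which carries Psmb11.

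RefSeq start regions (GRCm38.p6) were found for Tbata and Ly75 of the 4 genes. They are shown because both genes were lower in KO, and each is cut at the outermost annotated start, so that no transcribed base is printed. The Tbata region is chr10:61171714-61171953 on the plus strand and the Ly75 region chr2:60383304-60383523 on the minus strand, both written 5′ to 3′ on the strand of the gene.
Tbata: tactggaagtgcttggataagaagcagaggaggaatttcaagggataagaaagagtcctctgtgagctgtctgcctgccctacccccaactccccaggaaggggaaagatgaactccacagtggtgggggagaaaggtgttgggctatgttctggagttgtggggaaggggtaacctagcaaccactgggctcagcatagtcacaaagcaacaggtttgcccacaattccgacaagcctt
Ly75: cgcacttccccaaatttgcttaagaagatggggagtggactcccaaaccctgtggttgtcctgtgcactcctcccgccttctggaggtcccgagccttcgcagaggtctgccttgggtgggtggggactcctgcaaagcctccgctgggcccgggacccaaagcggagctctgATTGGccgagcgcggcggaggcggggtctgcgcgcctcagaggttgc
Capitals mark a match to CCAAT on the opposite strand. 4 motifs were searched on both strands. They were ACGC (the core that the thymic epithelial transcription factor Foxn1 is known to bind), the CCAAT box, the TATA box (searched as TATAAA) and also the promoter element GGGCGG that is bound by Sp1. ACGC was in neither region, and it was in 48.6% of 32851 RefSeq start regions cut to the 240 bases of the Tbata region and in 45.9% cut to the 220 bases of the Ly75 region. The Ly75 region held the CCAAT match alone, a motif present in 31.0% of regions of that length, and the Tbata region held no match to any of the motifs. The Ly75 region was richer in G and C (65.0%) than the Tbata region (52.1%). Such matches describe letters in these windows and are not evidence of binding.

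The 6 libraries held 34265035 to 39224292 gene counts. Psmb11 had 67, 36 and 41 counts in KO A to C and 8293, 9297 and 10027 counts in WT A to C, which fits the genotype labels. Levels are given as CPM, the read count relative to the TMM-scaled library size, and genes were compared with the edgeR quasi-likelihood test. The cTEC genes Ccl25, Cxcl12 and Foxn1 were detected in every library, and so were markers of medullary epithelium, which summed to 3966 to 5716 CPM. Genes with a p below 0.05 after Benjamini-Hochberg adjustment over all genes tested are referred to as called, which applied to 23.6% of genes. In this bulk RNA, fewer cells of a type and less RNA per cell cannot be told apart.

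All 4 genes were lower in KO than in WT, by 1.42-fold to 2.91-fold. Cd83 fell most, followed by Prss16, Tbata and Ly75. All 4 were called lower, where 11.1% of the 16938 genes tested were called lower and 12.5% higher. The KO and WT values did not overlap for any of the 4, and 20.0% of genes tested likewise had every KO library below every WT library. The median log2 fold change of the 4 genes was -0.98, and that of all genes tested was -0.001. The 4 genes were chosen with earlier results of these data known. These shares and medians, and the ranks of falls given below, are therefore not an independent contrast. With 3 libraries against 3, the exact two-sided permutation test of each gene alone gave p = 0.1, the smallest value that design allows.

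**Figure D1:**
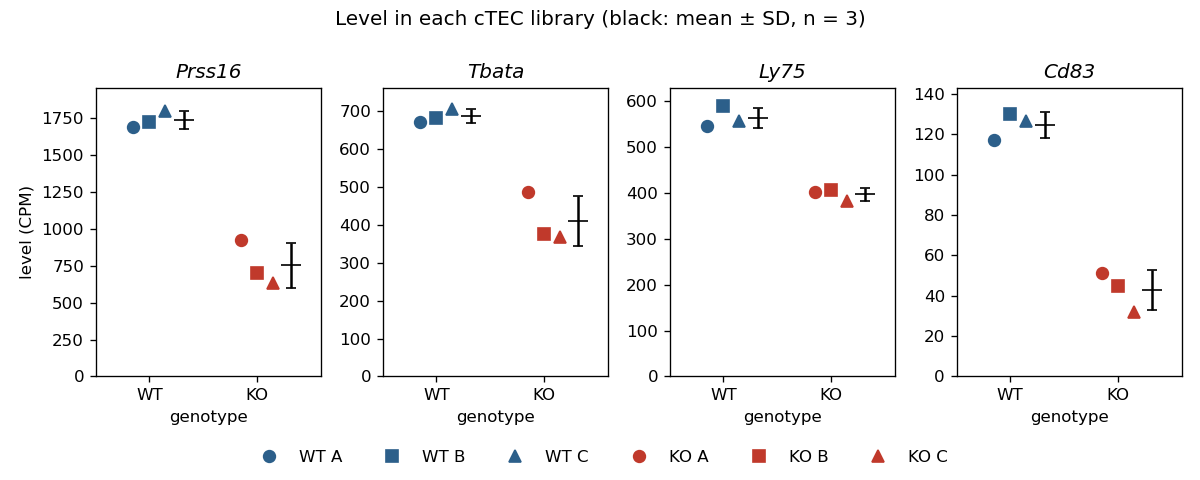
Level of each gene in CPM (y axis from 0) in the 3 WT libraries (blue) and 3 KO libraries (red), with the mean ± SD in black. Every KO library lies below every WT library for all 4 genes, and relative to their mean the KO libraries of Prss16, Tbata and Cd83 are spread more widely than those of Ly75.

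Prss16, the protease, was among the most abundant transcripts of WT cTECs. It had 58132, 61900 and 70401 counts in WT A to C and 34327, 25890 and 21608 counts in KO A to C. These were 1688, 1724 and 1802 CPM in WT and 925, 703 and 632 CPM in KO. The WT libraries lay close together, KO A was the highest of the KO libraries, and even that library was well below the lowest WT library, which was 1.82-fold higher. The mean was 753 ± 153 CPM in KO against 1738 ± 58.1 CPM in WT (± is the SD over 3 libraries). The level was 2.31-fold lower in KO, with a log2 fold change of -1.21 ± 0.16 (SE; edgeR adjusted p = 0.00989). Among 1790 genes called lower with at least 5 CPM in WT, this was the 9th largest fall. By TPM, which accounts for transcript length, Prss16 ranked 90th to 94th of all genes in the WT libraries and 163rd to 221st in the KO libraries.

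Cd83, the protein that opposes removal of class II from the surface, had the lowest level in TPM and the largest fall of the 4. WT A to C had 4045, 4667 and 4951 counts (117, 130.0 and 127 CPM). KO A to C had 1900, 1658 and 1092 counts (51.2, 45.0 and 31.9 CPM). KO C was the lowest, at 25.6% of the WT mean, and the other KO libraries were at 41.0% and 36.1%. The means were 42.7 ± 9.83 CPM in KO against 125 ± 6.51 CPM in WT (± is the SD over 3 libraries), a 2.91-fold difference. The log2 fold change was -1.54 ± 0.19 (SE; edgeR adjusted p = 0.00722), the 5th largest fall among the same 1790 genes.

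Tbata, the thymic stromal protein, had 23168, 24476 and 27620 counts in WT A to C (673, 682 and 707 CPM). It had 18032, 13858 and 12558 counts in KO A to C (486, 376 and 367 CPM). KO B and KO C were close to each other and KO A lay between them and WT. The mean was 410 ± 66.1 CPM in KO against 687 ± 17.7 CPM in WT (± is the SD over 3 libraries). Tbata was 1.68-fold lower, with a log2 fold change of -0.75 ± 0.12 (SE; edgeR adjusted p = 0.0137). The fold stayed between 1.59 and 1.85 when any library was left out, but the call was lost without WT A (adjusted p = 0.053) and without WT C (adjusted p = 0.0536).

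Ly75, the endocytic receptor, changed least, and relative to its mean it varied least among the KO libraries. It had 18787, 21100 and 21693 counts in WT A to C (545, 588 and 555 CPM) and 14898, 14983 and 13029 counts in KO A to C (401, 407 and 381 CPM). All KO libraries were at 67.7% to 72.2% of the WT mean. The means were 396 ± 13.4 CPM in KO against 563 ± 22.1 CPM in WT (± is the SD over 3 libraries). Ly75 was 1.42-fold lower, with a log2 fold change of -0.51 ± 0.04 (SE; edgeR adjusted p = 3.24e-07).

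Levels of different genes are compared here in TPM. In WT the order was Prss16 with 1611 ± 59.2 TPM, Tbata with 1437 ± 63.4 TPM, Ly75 with 147 ± 6.81 TPM and Cd83 with 108 ± 6.79 TPM (SD, n = 3 each). In KO the upper pair changed places, with Tbata at 877 ± 134 TPM and Prss16 at 728 ± 138.5 TPM, above Ly75 at 106 ± 3.31 TPM and Cd83 at 38.1 ± 8.75 TPM. The mean levels of Tbata and Prss16 in KO differed by about their SD. Within each library, however, Prss16 was above Tbata in 3 of 3 WT libraries and below it in 3 of 3 KO libraries. WT A to C had 1549, 1616 and 1667 TPM of Prss16 and 1368, 1448 and 1494 TPM of Tbata. KO A to C had 883, 684 and 617 TPM of Prss16 and 1032, 810 and 790 TPM of Tbata.

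Whether the 4 genes changed by unequal amounts was asked with the ratio of their counts inside each library, which does not depend on library scaling. The ratio of Prss16 to Tbata was 2.51, 2.53 and 2.55 in WT A to C and 1.90, 1.87 and 1.72 in KO A to C. This ratio varied little within a genotype although both genes varied in KO, and the genotypes did not overlap. The log2 ratio was lower in KO by 0.47 (difference -0.47 ± 0.04, SE). The ratio of Ly75 to Cd83 was 4.64, 4.52 and 4.38 in WT and 7.84, 9.04 and 11.9 in KO, a 2.09-fold rise. Against Ly75, Prss16 was 1.65-fold lower in KO, and against Cd83 it was 1.27-fold higher. Tbata was 1.76-fold higher against Cd83. Tbata against Ly75 was the only pair whose genotypes overlapped, at 1.16 to 1.27 in WT and 0.925 to 1.21 in KO, with a log2 difference of -0.25 ± 0.13 (SE). Of 6 pairs, 5 had no overlap and p = 0.1 in the exact two-sided permutation test (adjusted p = 0.12), and Tbata to Ly75 had p = 0.2 (adjusted p = 0.2). The smallest p this design allows is 0.1.

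**Figure D2:**
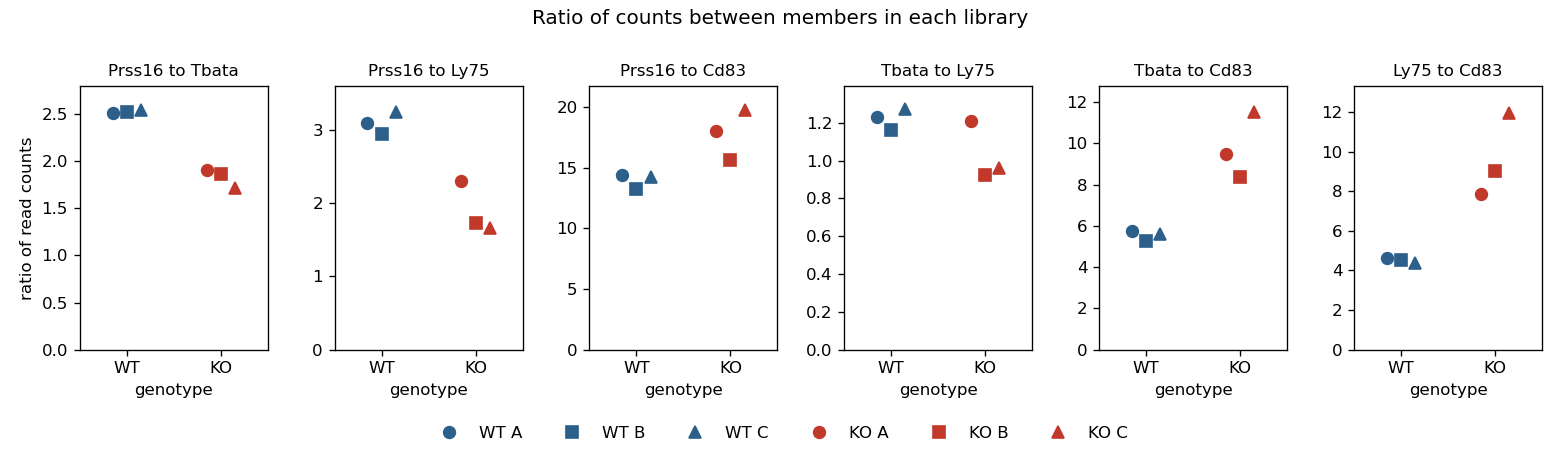
Ratio of read counts between 2 of the genes in each library (y axis from 0), for the 6 pairs, in WT (blue) and KO (red). The genotypes separate for every pair except Tbata to Ly75, where KO A, at 1.21, lies within the WT range.

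The KO libraries differed from each other more than the WT libraries for Prss16, Tbata and Cd83, and the spreads were not tested. The coefficient of variation of Prss16 was 20.3% in KO and 3.35% in WT, that of Cd83 23.0% and 5.22%, and that of Tbata 16.1% and 2.58%. For Ly75 it was 3.39% in KO and 3.93% in WT. Among 10063 other genes whose mean reached 10 CPM, 64 (0.636%) had a KO spread as large as that of Prss16, as the SD of log2(CPM + 1). For Cd83 that number was 24 (0.238%), for Tbata 152 (1.51%) and for Ly75 5874 (58.4%). The median SD of log2(CPM + 1) over such genes was 0.057 in KO and 0.047 in WT. That the KO libraries vary for Prss16 was known when the genes were chosen. These shares are therefore not an independent contrast.

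KO A was the highest and KO C the lowest KO library for Prss16, Tbata and Cd83, an order shared by 17.5% of all genes tested and 23.1% of genes called lower. In KO A, Prss16 was at 53.2% of the WT mean, Tbata at 70.7% and Cd83 at 41.0%. In KO C they were at 36.4%, 53.5% and 25.6%. Ly75 did not follow, with 71.3%, 72.2% and 67.7% in KO A to C. Without KO A the falls were 2.60-fold for Prss16 and 1.85-fold for Tbata, and all 4 genes were called.

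**Figure D3:**
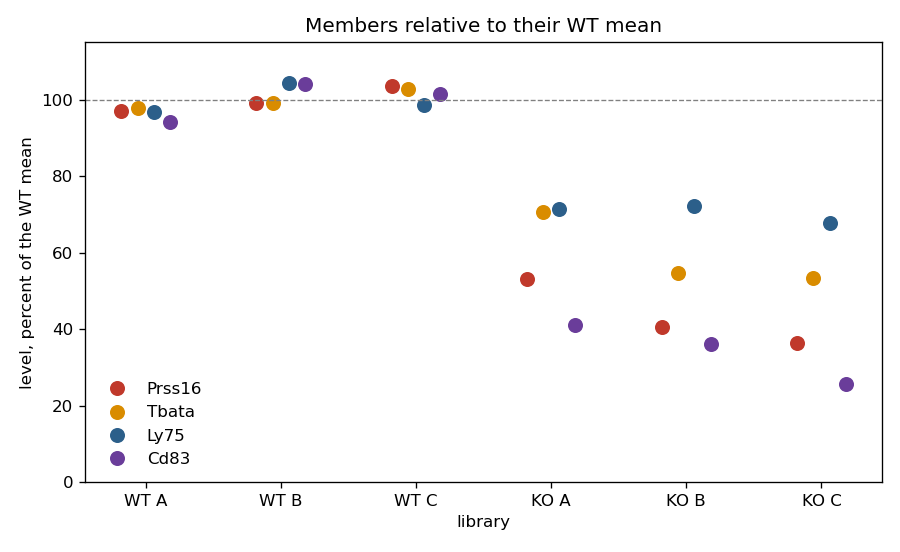
Level of each gene in each library as a percent of its WT mean (dashed line, 100), with libraries on the x axis and genes by colour. Ly75 stays near 70% in all 3 KO libraries, while Prss16, Tbata and Cd83 are highest in KO A.

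Other genes of cTEC identity moved in both directions. Of 20 on the list, 10 were lower in KO, 3 higher and 7 not called, and their median log2 fold change was -0.18. The list and its 10 lower genes include Psmb11, whose fall follows from the genotype. Besides Psmb11, the smallest p-values belonged to the chemokine Cxcl12, which had 876 ± 20.8 CPM in KO against 1250 ± 40.5 CPM in WT, and to the aminopeptidase Enpep, with 145 ± 3.84 and 197 ± 4.15 CPM (SD, n = 3 each). They fell 1.43-fold and 1.36-fold (edgeR adjusted p = 1.99e-07 and 5.16e-07), close to Ly75. Besides Psmb11, the largest falls on the list were those of Ccl25, 2.14-fold, and Dll4, 1.73-fold (edgeR adjusted p = 0.00335 and 4.93e-04). Foxn1, the transcription factor of thymic epithelium, was at 84.7%, 78.7% and 67.8% of its WT mean in KO A to C, a smaller decrease than that of Prss16 in each library. Ccl25, Dll4, Foxn1 and the genes called higher, which were Pax9, Tbx1 and Cd274, were named after their values were seen. Only 1 of those higher genes was called without KO B, without KO C or without WT C, and 2 without WT A. With limma on log2(TPM + 1), 8 genes of the list were lower and 2 higher. On log2(TPM + 0.1), 8 were lower and 0 higher. When libraries were scaled to summed epithelial markers, a choice made after the data were seen, the median log2 fold change of all genes became 0.22. The list then had 8 lower, Psmb11 included, and 10 higher. The markers include Krt8 and Krt18, which are on this list and were called lower, so these counts depend in part on genes of the list itself. The 4 genes stayed lower and called under that scaling.

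Of 19 measured genes of CD4 selection and class II presentation, 12 were lower in KO, 2 higher and 5 not called. Their median log2 fold change was -0.19, and March1 was too low to be tested. Under the epithelial scaling, with its upward shift of the median of all genes, 1 was lower and 5 were higher. Ctss, a lysosomal cysteine protease, rose 2.03-fold from 5.82 ± 0.841 to 11.8 ± 0.710 CPM (SD, n = 3 each; edgeR adjusted p = 1.24e-05). H2-DMb2, a chain of the class II peptide exchanger, and H2-Aa, a class II alpha chain, fell 1.23-fold and 1.21-fold (adjusted p = 1.8e-05 and 4.02e-05). Ctsl, the cysteine protease of cTECs known to be needed for CD4 selection, had 2751 ± 175 CPM in KO against 3532 ± 147 CPM in WT and fell 1.28-fold. March8, the ligase that Cd83 opposes, fell 1.12-fold, from 182 ± 4.21 to 162 ± 2.35 CPM (edgeR adjusted p = 0.00214). Ctsl and March8 were named after their values were seen, for their link to the members. The higher genes were Ctss and Lgmn, both also known in dendritic cells and macrophages, whose marker sums were higher in KO (20.6 to 35.5 and 73.7 to 81.5 CPM, against 14.0 to 15.9 and 42.0 to 48.2 CPM in WT), and their part was not tested. Only 1 of the pair was called without KO B, KO C, WT A or WT C, each left out alone.

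Of 13 neddylation genes, 1 was lower and 12 were not called. The median of their log2 fold changes was -0.06. Under the epithelial scaling, with the same upward shift of the median of all genes, 10 of them were higher. The lower gene was the modifier Nedd8, 1.16-fold (edgeR adjusted p = 0.00246). Uba3, the reported partner of Tbata, had 56.6 ± 2.52 CPM in KO against 55.7 ± 1.77 CPM in WT (± is the SD over 3 libraries) and was not called. Of 5 family relatives, 3 were higher, and Prcp and Mrc1 were not called. The higher genes were Dpp7, a relative of Prss16 among serine peptidases, and Mrc2 and Pla2r1, relatives of Ly75 in the mannose receptor family, which rose 1.74-fold, 1.599-fold and 1.71-fold (edgeR adjusted p = 8.55e-04, 9.47e-04 and 0.00117). All 3 were far lower than the members, at 8.01, 6.87 and 2.71 TPM in KO. With limma on log2(TPM + 1) or log2(TPM + 0.1), only 1 family relative was higher and 4 were not called. Mrc2 is also known in fibroblasts, whose markers were higher in KO (998 to 1112 CPM as a sum, against 713 to 819 CPM in WT), and their part in this result was not tested.

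**Figure D4:**
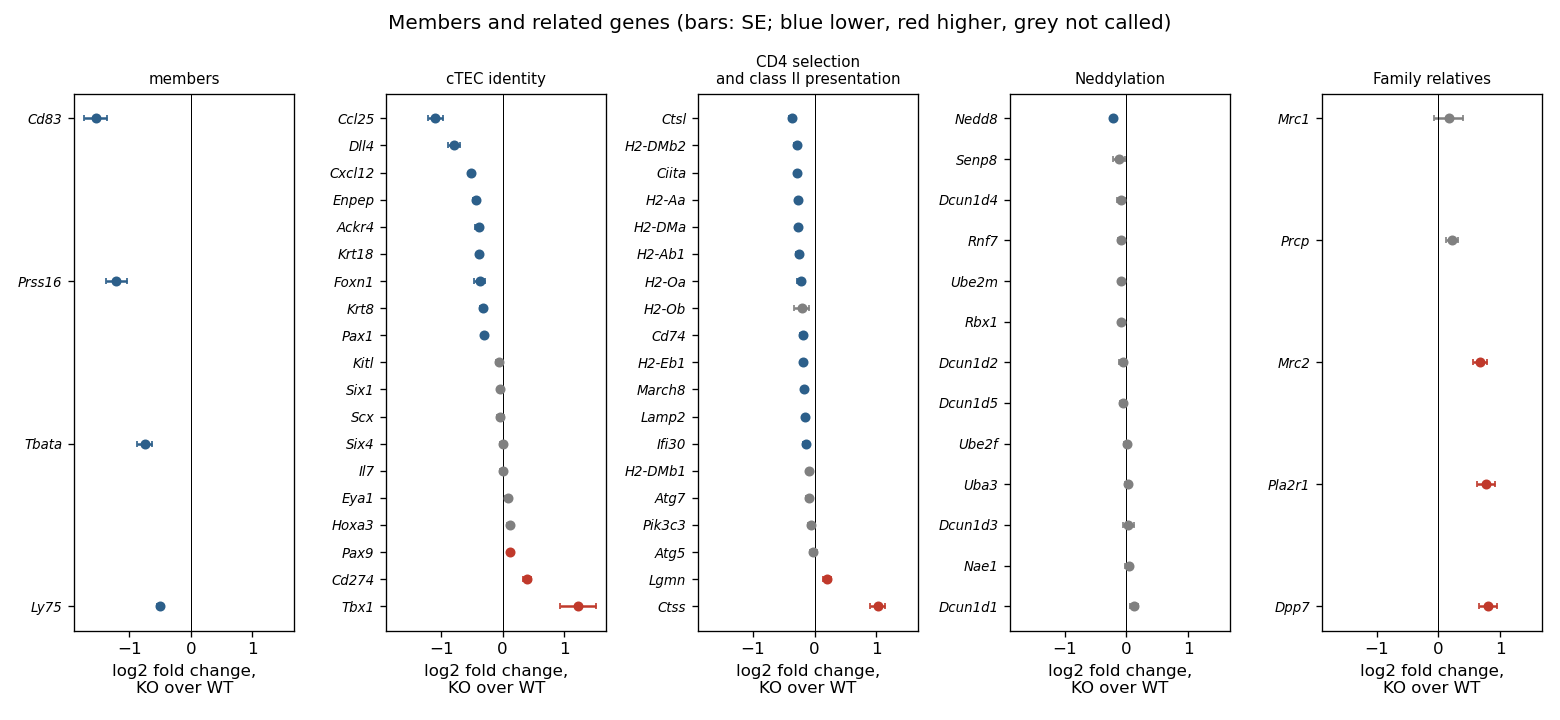
Log2 fold change of KO over WT (x axis, bars are the SE) for the 4 genes and the measured genes of each list, without Psmb11, coloured by call. Cd83 and Prss16 lie further to the left than every other gene drawn, at -1.54 and -1.21.

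The genes whose profiles were most like each member were sought over the 6 libraries among 10063 genes whose mean reached 10 CPM. The measure was the mean absolute difference in log2(CPM + 1) after subtracting the WT mean of each gene. Nearest to Prss16 were Cyp26b1, which degrades retinoic acid (0.057), the thymocyte-attracting chemokine Ccl25 (0.071) and the adaptor Apba1 (0.121). Nearest to Tbata were Crip3 (0.022), the adrenergic receptor Adra1a (0.041) and the sodium channel subunit Scn4b (0.057). Nearest to Ly75 were Cxcl12 (0.020), the fatty acid synthase Fasn (0.020) and Tlcd2 (0.024). Nearest to Cd83 were the neurofilament gene Nefm (0.105), Cyp26b1 (0.167) and Prss16 (0.187). Ccl25 had 405, 321 and 304 CPM in KO A to C and 729, 715 and 757 CPM in WT A to C. It was thus also highest in KO A. Crip3 had 142, 116 and 111 CPM in KO against 198, 202 and 211 CPM in WT.

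Epithelial markers were at 4465 to 4568 CPM in KO against 5166 to 5383 CPM in WT as a sum, with 3 of 7 higher and 2 lower, namely Krt8 and Krt18, which are also on the cTEC identity list. Cd83 and Ly75 are also known in dendritic cells and B cells, whose marker sums were higher in KO. Of 10 dendritic cell markers, 4 of the 5 tested were higher. Only 1 was higher with limma on log2(TPM + 1) or log2(TPM + 0.1), and 2 in edgeR without WT A. The sum of the 10 markers was 20.6 to 35.5 CPM in KO against 14.0 to 15.9 CPM in WT. Xcr1, Clec9a, Siglech and Cd209a were at 0 in at least 1 library. Of 7 B cell markers, 1 of the 3 tested was higher. Their sum was 6.58 to 8.70 CPM in KO against 4.01 to 4.40 CPM in WT, and Ms4a1, Pax5 and Cd22 were each at 0 in at least 1 library. Both sums were higher in KO, where Cd83 and Ly75 were lower, and the part of these cells in those levels was not tested.

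Of 10 macrophage markers, 5 were higher, with a sum of 73.7 to 81.5 CPM in KO against 42.0 to 48.2 CPM in WT. Medullary epithelial markers were higher for 5 of 8, with 5335 to 5716 CPM in KO against 3966 to 4535 CPM in WT. Fibroblast markers were higher for 5 of 7, with 998 to 1112 CPM in KO against 713 to 819 CPM in WT. With limma on log2(TPM + 1), 3 macrophage, 5 medullary and 3 fibroblast markers were higher. On log2(TPM + 0.1) these numbers were 3, 5 and 2. With all libraries and the filterByExpr count filter, none of the 12 thymocyte or 6 endothelial markers tested was called with edgeR, and at an unadjusted p below 0.05 there were 1 and 0. DESeq2 and limma on log2(TPM + 1) called none either. In edgeR, 2 thymocyte markers were higher under the epithelial scaling and 1 without KO C. Of the endothelial markers, 1 was lower without KO A, and without a filter on low counts 1 was lower and 1 higher. Emcn was at 0 in at least 1 library, and no marker of the macrophage, medullary, fibroblast or thymocyte lists was at 0 in any library. KO A, the KO library highest in Prss16, Tbata and Cd83, also had the highest sums of thymocyte markers (111 CPM, against 67.2 and 79.1 CPM in the other KO libraries and 72.1 to 81.4 CPM in WT), dendritic cell markers (35.5 CPM), B cell markers (8.70 CPM), endothelial markers (46.0 CPM) and medullary markers (5716 CPM). The part of these cell types in the levels of the 4 genes was not tested.

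**Figure D5:**
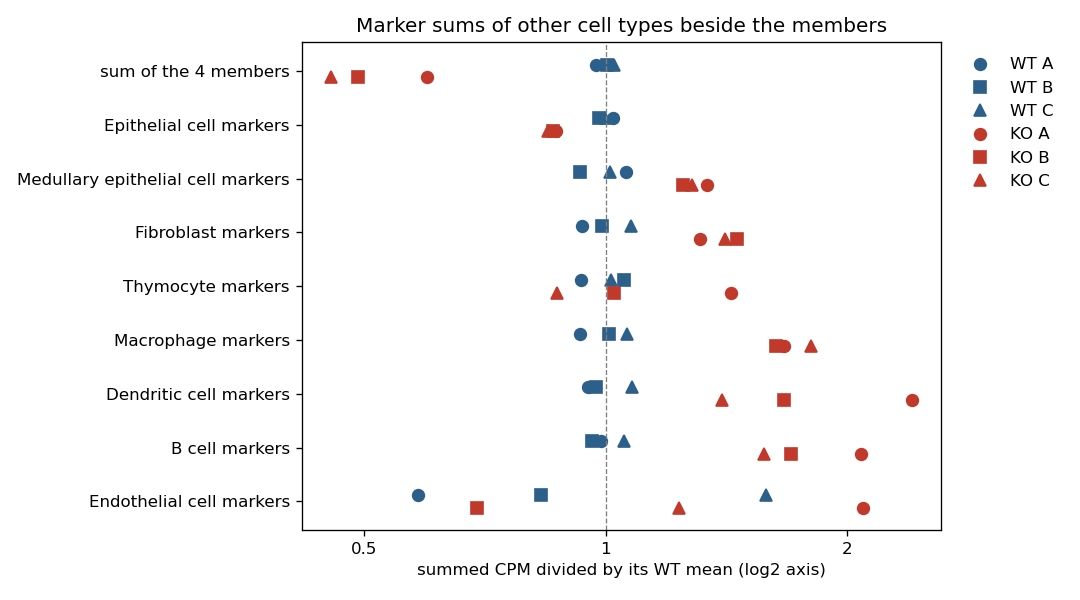
Summed CPM of each marker list and of the 4 genes, divided by the mean of the WT libraries (log2 x axis), for each library. The sum of the 4 genes is lower in KO, the medullary, fibroblast, macrophage, dendritic cell and B cell sums are higher, and KO A is the highest library for dendritic cell, B cell, thymocyte, endothelial and medullary markers.

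For Prss16, the deposited columns also differed between genotypes in how reads were placed. Reads on the strand opposite to the gene were 5.08%, 5.81% and 6.76% of its reads in KO A to C and 3.96%, 3.62% and 3.65% in WT A to C. The genotypes did not overlap, and KO C, with the least Prss16, had the highest share. In level these reads were 46.2 ± 3.09 CPM in KO against 67.5 ± 2.496 CPM in WT (± is the SD over 3 libraries), 1.46-fold lower against 2.31-fold for the gene strand. GENCODE M21 holds no gene on the opposite strand there. The median share over 10064 genes with at least 10 CPM was 0.762% to 0.979% in the 6 libraries, and Tbata, Ly75 and Cd83 had 0% to 1.52%. The mean transcript length that RSEM assigned to Prss16, which moves with the mix of its transcripts, was 1829 to 1861 bases in KO and 1869 to 1884 bases in WT. Of 7 such comparisons of strand share or length over the 4 genes, these 2 for Prss16 had no overlap, with p = 0.1 each (exact two-sided permutation test, adjusted p = 0.35).

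Ly75 overlaps the antisense gene Gm13571 (chromosome 2, 60338188 to 60371234, plus strand), which had 4 to 10 counts on its own strand in each library. Counting without strand gave 9.04% to 9.74% fewer Ly75 reads, by a like share in both genotypes, and left its log2 fold change at -0.50. The next gene on the same strand, Cd302, another lectin receptor, was not called, at 12.3 ± 1.58 CPM in KO against 12.1 ± 0.159 CPM in WT (± is the SD over 3 libraries).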

How the data were processed

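The submitters' processing notes list bcl2fastq 2.17, the aligner STAR 2.5.1b and the quantifier RSEM 1.2.28, and as build GRCh38, which is human, while the deposited identifiers are mouse Ensembl genes. The build used is therefore uncertain, and symbols came from GENCODE M21, which matched 50376 of 50600 identifiers. The deposited counts are raw reads per gene under 3 strand settings. The test used the setting in which the first read is antisense to the transcript. It holds most gene reads and is taken as the strand of the gene, while the reverse setting gave the reads called opposite to the gene. Rows that name no gene (18.4% to 19.8% of reads) were left out. The deposited RSEM expected counts, rounded, and TPM served levels between genes and alternatives, and the deposited RSEM length is a weighted transcript length.

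KO and WT were compared with edgeR 4.0.16 (R 4.3.3; TMM, filterByExpr, quasi-likelihood test with a robust prior, no block), tested on simulated data. The SE of a log2 fold change was derived from the F statistic. Permutation tests used scipy 1.17.1. Members, lists and the robust prior were chosen with earlier results of these data known. Named genes were all members, Psmb11, up to 3 called genes per list by p (otherwise the 2 highest), and the 3 nearest profiles per member. Alternatives were RLE and upper quartile factors, DESeq2 1.42.0, other filters, RSEM counts, limma 3.58.1 on log2(TPM + 1) or log2(TPM + 0.1), unstranded counts, a replicate block, epithelial scaling, no robust prior and leaving out each library.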

Additional observations from a re-analysis of the deposited data

How the results depend on the processing

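All 4 genes stayed lower in KO under all 18 alternatives, with log2 fold changes of -1.38 to -0.99 for Prss16, -0.89 to -0.53 for Tbata, -0.53 to -0.29 for Ly75 and -1.69 to -1.33 for Cd83. The values nearest to 0 came from scaling to epithelial markers. Ly75 was called under every one of them. With the replicate block, Prss16 (-1.22, edgeR adjusted p = 0.0608), Tbata (-0.76, adjusted p = 0.055) and Cd83 (-1.56, adjusted p = 0.0554) were not called, and 4097 genes were called against 3989, with 11.3% of genes tested called lower. Over all alternatives the adjusted p ran from 6.55e-12 to 0.0608 for Prss16, from 5.64e-11 to 0.055 for Tbata and from 2.55e-13 to 0.0554 for Cd83. The letters are not shown to pair the libraries: deviations of same-letter libraries correlated at 0.004, 0.12 and -0.055 over 14000 genes, and not every library correlated best with its own letter. Leaving out 1 library gave log2 fold changes of -1.38 to -1.10 for Prss16, -0.89 to -0.67 for Tbata, -0.53 to -0.47 for Ly75 and -1.69 to -1.38 for Cd83. Of these calls, those of Tbata without WT replicate A and without WT replicate C were lost, and 2715 to 3661 genes were called. The number of genes called fell to 1390 (946 higher, 444 lower) with limma on log2(TPM + 1) and 952 (694 higher, 258 lower) on log2(TPM + 0.1), and was 9079 (8792 higher, 287 lower) with epithelial scaling. With limma on log2(TPM + 1), 4 class II genes were lower and Nedd8 was not called. No ratio between members changed sign under 9 alternatives each.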
